A study of Mus musculus with 19 samples.

Results

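The cytosolic ribosomal protein genes were followed in mouse embryonic stem cells with and without Trim71 and with and without Lin28a. Members were chosen by symbol alone: Rpl or Rps with a number, Rplp0 to Rplp2 and Rpsa, with or without the endings a, x, l or l1, and without copies marked -ps or the Rps6k kinases. Of 86 such symbols, 84 passed the filter on low values, a log2 value of at least 3.32 in at least 4 libraries. They were 32 small-subunit and 52 large-subunit genes among the 14988 genes tested and the 21685 genes listed. Each of the 84 was at or above the filter value in all 18 libraries, so none entered through 1 genotype alone. Just outside the filter were Rpl24, with a mean of 2.95 over the 18 libraries, and Rps12l1, with 2.26; just inside was Rpl3l, with 3.95.

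The cytosolic ribosome consists of a small (40S) and a large (60S) subunit, each built from ribosomal RNA and ribosomal proteins, most of them in a single copy. The mRNAs of these proteins begin with a run of pyrimidines, the terminal oligopyrimidine (TOP) motif, through which mTOR signalling and the protein LARP1 set their translation and stability. Fast-dividing cells such as embryonic stem cells spend much of their transcription on these genes, and free ribosomal proteins can reach MDM2 and raise p53. Trim71 is an RNA-binding ubiquitin ligase that silences target mRNAs in stem cells. Lin28a binds RNA and blocks maturation of the microRNA let-7.

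All 18 libraries came from male C57BL/6 cells kept in serum with leukaemia inhibitory factor and enriched for SSEA-1, an antigen of undifferentiated cells, on magnetic columns. Group names give Trim71 before Lin28a: WT-WT (Trimfl/fl - Lin28afl/fl, n = 4), KO-WT (Trim-/- - Lin28afl/fl, n = 4), WT-KO (Trimfl/fl - Lin28a-/-, n = 5) and KO-KO (Trim-/- - Lin28a-/-, n = 5). A floxed allele still makes its product. Trim71 was removed with 500 nM 4-hydroxytamoxifen (4-OHT) for 2 days, with harvest at least 7 days later; the labels state neither whether the floxed controls received the drug nor how Lin28a was removed. Cells with Lin28a came from clones 1 and E3, cells without it from clones 1-4 and C1, so that Lin28a state and clone cannot be told apart. WT-WT held 2 libraries of clone 1 and 2 of E3, KO-WT 1 and 3, and WT-KO and KO-KO each 2 of clone 1-4 and 3 of C1, and the fit has no clone term. Each genotype rests on 2 clones harvested on up to 5 days. Days 1 and 5 held only clones 1 and 1-4, and days 2, 3 and 4 only E3 and C1. Day effects had been removed from the values, and the fit has day terms. P-values thus measure the spread left within days. They leave out differences between days and those shared by a whole clone set, and the SDs below lack them too. Trim71 was at 10.04 or above in the libraries that carried it and at 9.55 or below in those labelled as lacking it, and Lin28a at 9.74 or above and 8.57 or below, so each was lower in its labelled groups but still listed.

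The deposited numbers are normalised expression on a log2 scale, without differences between harvest days, which had been removed; read depth is unknown. Of 10 embryonic stem cell markers, 9 passed the filter, the exception being Fut4, and the list's summed linear level was 39607 to 41656 units in WT-WT, 41841 to 45051 in KO-WT, 48520 to 53883 in WT-KO and 50990 to 53912 in KO-KO, higher in every library without Lin28a than in any with it. Trophectoderm or epithelial markers (6 of 8 passed, without Cdx2 and Elf5) summed to 3649 to 5189 units in WT-WT, 3710 to 4787 in KO-WT, 279 to 353 in WT-KO and 305 to 458 in KO-KO. Primitive endoderm markers (6 of 8 passed, without Sox17 and Foxa2) summed to 2676 to 3354, 3401 to 4507, 1137 to 1517 and 1606 to 2099 units in the same order. Fibroblast markers (3 of 8 passed) summed to at most 125 units. Such sums are carried by the highest genes of a list. In WT-KO against WT-WT, 6 of the 9 stem cell markers had a higher mean, and Zfp42, Tdgf1 and Dppa4 a lower one. Of the 6 trophectoderm or epithelial markers, 5 had a lower mean there and Eomes a higher one. The part of these marker differences in the results below was not tested, and in bulk RNA fewer cells of a type cannot be told apart from less RNA per cell.

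Start sites are shown for members on which the results turn, since a TOP motif begins at the start of the mRNA. RefSeq promoter windows on GRCm38.p6, 250 bases before and 50 bases after the annotated start, matched 62 of the 84 members. Each line below holds the 15 bases on either side of the start on the gene's strand, and capitals mark the longest pyrimidine run of at least 6 bases in these 30.
Rpl39l, chr16:10170213-10170242, plus strand: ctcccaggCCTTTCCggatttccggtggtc
Rpl22l1, chr3:28805493-28805522, plus strand: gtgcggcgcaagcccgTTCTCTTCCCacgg
Rps10, chr17:27635230-27635259, minus strand: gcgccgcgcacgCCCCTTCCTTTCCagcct
Rpl27a, chr7:109519180-109519209, plus strand: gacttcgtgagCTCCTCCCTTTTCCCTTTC
Rpl31, chr1:39367836-39367865, plus strand: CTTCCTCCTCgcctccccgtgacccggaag
Rplp2, chr7:141447636-141447665, plus strand: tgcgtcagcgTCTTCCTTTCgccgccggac
Rpl15, chr14:18270972-18271001, minus strand: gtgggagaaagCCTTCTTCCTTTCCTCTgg
Rps15a, chr7:118116133-118116162, minus strand: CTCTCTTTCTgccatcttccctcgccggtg
Rpl14, chr9:120571502-120571531, plus strand: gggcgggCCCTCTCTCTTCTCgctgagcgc
Rpl26, chr11:68901551-68901580, plus strand: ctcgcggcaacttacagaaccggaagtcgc

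A run of at least 8 pyrimidines within 30 bases of the start was found in 58.06% of the 62 members and in 25.77% of the 27025 genes with a window. The letters CCGGAA, the core bound by ETS-family factors, stood on either strand in 54.84% of members and 16.66% of genes. AAGATGG, the core of the YY1 motif, stood on either strand in 16.13% and 7.278%, and TATAAA on the sense strand in 11.29% and 9.772%. In the lines above, runs of 10 or more stand in Rpl22l1 and Rpl14, which only rose in the comparisons below, in Rpl27a, Rpl31, Rplp2, Rpl15 and Rps15a, which only fell, and in Rps10, which did both. Rpl26 has no run of 6 in the 30 bases printed, and its longest run within 30 bases on either side of the start is 9. In Rpl39l, Rpl31 and Rps15a the capitals lie wholly before the annotated start. These matches describe annotated windows. Start sites were not measured here, and no marked run is shown to be a TOP motif.

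Most members were among the strongly expressed genes: 76 of the 84 had a mean log2 level above 11. Per kilobase of transcript, the members' log2 levels had a median of 12.99, and 69 reached 12. The highest per kilobase was Rplp1, a stalk protein, at 14.53. The lowest was Rpl3l, the muscle paralogue of Rpl3, at 3.49. Rpl13a, a large-subunit protein, stood at 8.84 per kilobase, and Rpl24, a large-subunit protein that joins the subunits and failed the filter, at 3.51. Rpl24 ran from 2.80 to 3.18 over the 18 libraries, so this low listing was shared by all of them. Many ribosomal protein genes have near-identical processed copies elsewhere in the genome, and how the authors counted reads that fit several copies is not given in the sources used here, so these levels are uncertain. GENCODE M21 annotates 3 members, Rpl6l, Rpl32l and Rps4l, as pseudogenes and the other 81 as protein coding.

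The members moved together from library to library. Within genotypes, a member's deviation correlated with the median deviation of the other members with a median Pearson r of 0.81 over 18 libraries, and 75 of 84 members had r above 0.5; all share the library and its scaling. The residual SD of a member within genotypes had a median of 0.059 on the log2 scale. Standing apart was Rpl27a, a large-subunit protein, with r of -0.029. Some paralogues with the ending l or l1 also had low values: r was 0.21 for Rpl10l, 0.22 for Rpl7l1 and 0.27 for Rpl32l. Rps10, without such an ending, had 0.44. The plot of deviations by member and library shows whole columns shift, with a median member deviation of 0.15 in KO-WT replicate 1 and -0.092 in WT-WT replicate 3.

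**Figure D1:**
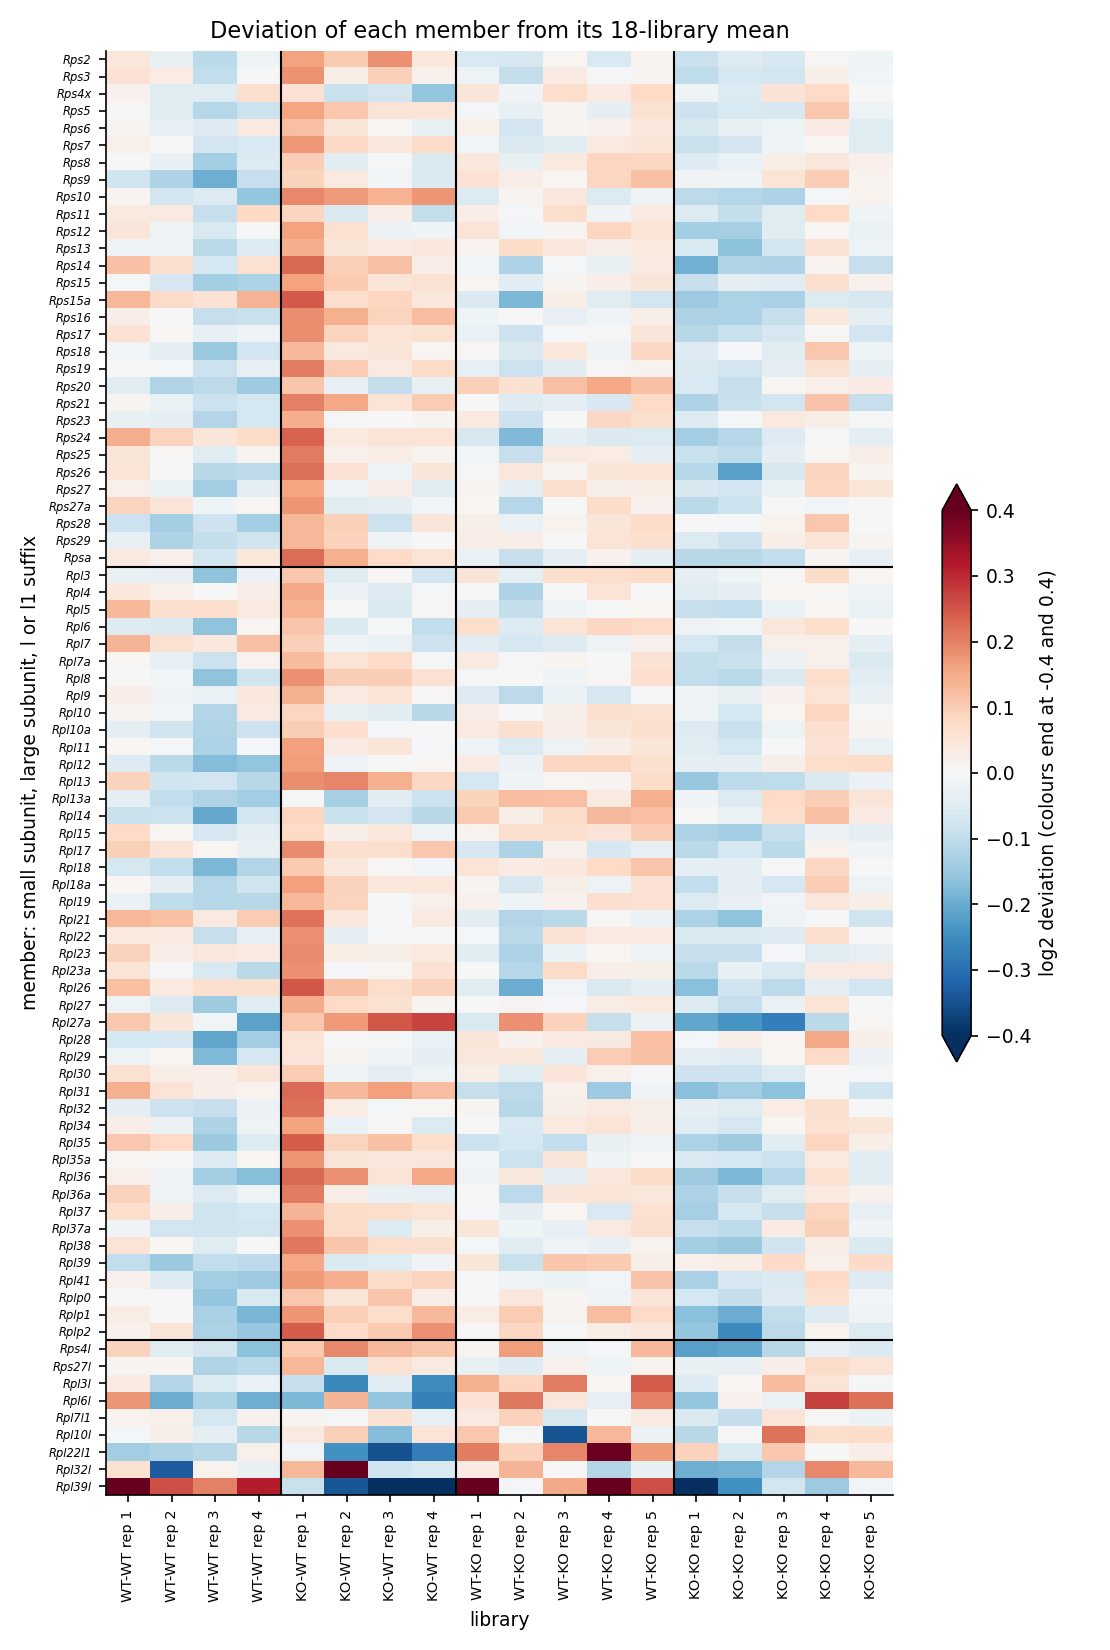
Deviation of each of the 84 members (rows: small subunit, large subunit, then names ending in l or l1) from its mean over 18 libraries (columns, by genotype), in log2 units with colours ending at -0.4 and 0.4. Columns shift as a whole, most visibly KO-WT replicate 1, while Rpl27a does not follow them. Rpl39l shifts with them within genotypes (r of 0.74) and is lower in both Trim71-null groups.

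Summed over the members, ribosomal protein mRNA made up 7 to 8% of all normalised units in every genotype. The share was 7.61, 7.36, 6.99 and 7.31% in WT-WT replicates 1 to 4 (7.32 ± 0.253, SD). In KO-WT it was 8.30, 7.78, 7.89 and 7.62% (7.90 ± 0.287), and every KO-WT library lay above every WT-WT library. WT-KO gave 7.51, 7.31, 7.72, 7.45 and 7.71% (7.54 ± 0.178), and KO-KO gave 7.13, 7.22, 7.27, 7.76 and 7.49% (7.38 ± 0.254). These 2 groups overlapped each other, WT-WT and KO-WT. KO-WT was higher in all 3 same-day pairs with WT-WT and in all 4 with KO-KO. KO-KO was higher than WT-KO in 1 of 5 pairs, and WT-KO was higher than WT-WT in 3 of 4. The highest library, KO-WT replicate 1, has no WT-WT library of its day. Both subunits followed the same order: the small-subunit share was 2.99 ± 0.105, 3.23 ± 0.123, 3.07 ± 0.0771 and 3.00 ± 0.108% in WT-WT, KO-WT, WT-KO and KO-KO, and the large-subunit share 4.33 ± 0.148, 4.66 ± 0.165, 4.47 ± 0.101 and 4.37 ± 0.147%. No test was run on these sums.

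**Figure D2:**
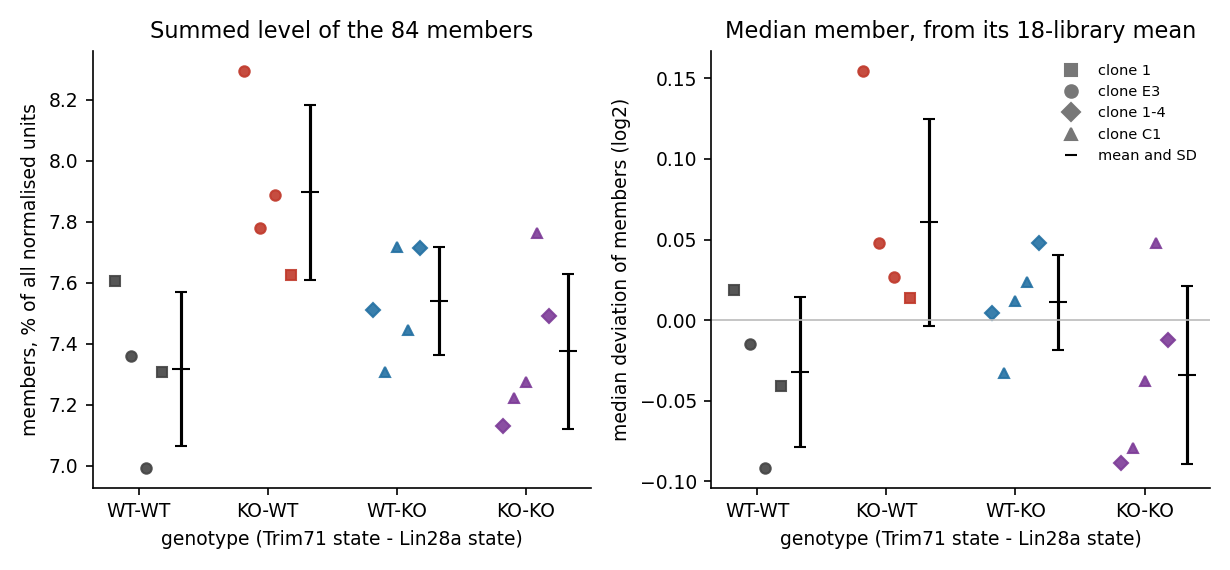
Left, summed level of the 84 members as a percentage of all normalised units; right, median log2 deviation of the members, for each library by genotype, with marker shapes for clones and bars for mean and SD. KO-WT libraries lie at 7.62% or above; KO-WT replicate 1, at 8.30%, is the highest of the 18.

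Of the 84 members, 55 had their highest genotype mean in KO-WT, 20 in WT-KO, 7 in WT-WT and 2 in KO-KO. The spread was small: in 65 members the 4 genotype means lay within 0.2 log2 units. A member is said to rise or fall below where its Benjamini-Hochberg adjusted p-value over all 14988 genes, from limma with terms for genotype and day, was under 0.05. Log2 differences are followed by their standard errors.

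Loss of Trim71 in cells with Lin28a (KO-WT against WT-WT) moved few ribosomal protein genes past the threshold. 9 members rose and 1 fell, 11.9% of 84, against 11.2% of all genes called; by direction, 4.74% of all genes rose and 6.43% fell. The median member differed by 0.09, with 71 of 84 above 0, where the median over all genes was -0.0046. KO-WT and WT-WT differ in their make-up of clones: the median was 0.14 in E3 and 0.029 in clone 1, and in each clone set alone 0 members were called. Those that rose were the small-subunit genes Rps10, Rps15 and Rps16 and the large-subunit genes Rpl36, Rpl41, Rpl13, Rpl8, Rpl18 and Rpl19, by 0.15 to 0.24 log2 units. The gene that fell was Rpl39l. Of the 32 small-subunit members 29 lay above 0, and of the 52 large-subunit members 42.

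Rps10, a protein of the 40S head that is mutated in some cases of Diamond-Blackfan anaemia, stood at 12.32, 12.24, 12.26 and 12.16 in WT-WT and at 12.50, 12.48, 12.45 and 12.49 in KO-WT. No KO-WT library overlapped WT-WT. It rose by 0.24 ± 0.0493 (adjusted p = 0.0090 in limma, higher in 3 of 3 same-day pairs), or 17.9%; without WT-WT replicate 4 the adjusted p was 0.053. In WT-KO it ran from 12.26 to 12.36 and in KO-KO from 12.19 to 12.32, within reach of WT-WT. Rpl36, a 60S protein, was at 11.92, 11.88, 11.76 and 11.72 in WT-WT and at 12.12, 12.08, 11.95 and 12.05 in KO-WT. These groups did not overlap either, and the difference was 0.23 ± 0.0632 (adjusted p = 0.031). Rpl41, the shortest ribosomal protein, rose by 0.20 ± 0.0563 (adjusted p = 0.035), from 12.60 to 12.76 over WT-WT to 12.82 to 12.92 over KO-WT. Rpl13 rose by 0.20 ± 0.0542 (adjusted p = 0.032), and its WT-WT libraries at 12.69, 12.52, 12.52 and 12.48 overlapped KO-WT, at 12.78, 12.79, 12.74 and 12.68.

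Calls over all genes in alternative fits are not given here or below, so changes in member counts cannot be read as particular to members. This count of 10 moved with single libraries. It was 1 (Rpl39l alone) without WT-WT replicate 4, 2 without WT-WT replicate 3 or KO-WT replicate 2, 3 (1 higher, 2 lower) without KO-WT replicate 1, 5 without WT-WT replicate 2, 6 without KO-WT replicate 3 or KO-WT replicate 4, 4 without WT-KO replicate 1 and 16 without KO-KO replicate 4. It was 0 when the 2 genotypes were fitted alone, and 4 (3 higher, 1 lower) after a correction for GC content and length, with a median of 0.064. The members' differences tracked the GC content of their transcripts, with a Pearson r of 0.45 and a Spearman rho of 0.57 over 84 members, and so did those of all genes, with 0.49 and 0.51 over 14724 genes; genes are not independent replicates. The correction took GC content and length together, and the part of either in the rise was not tested.

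**Figure D3:**
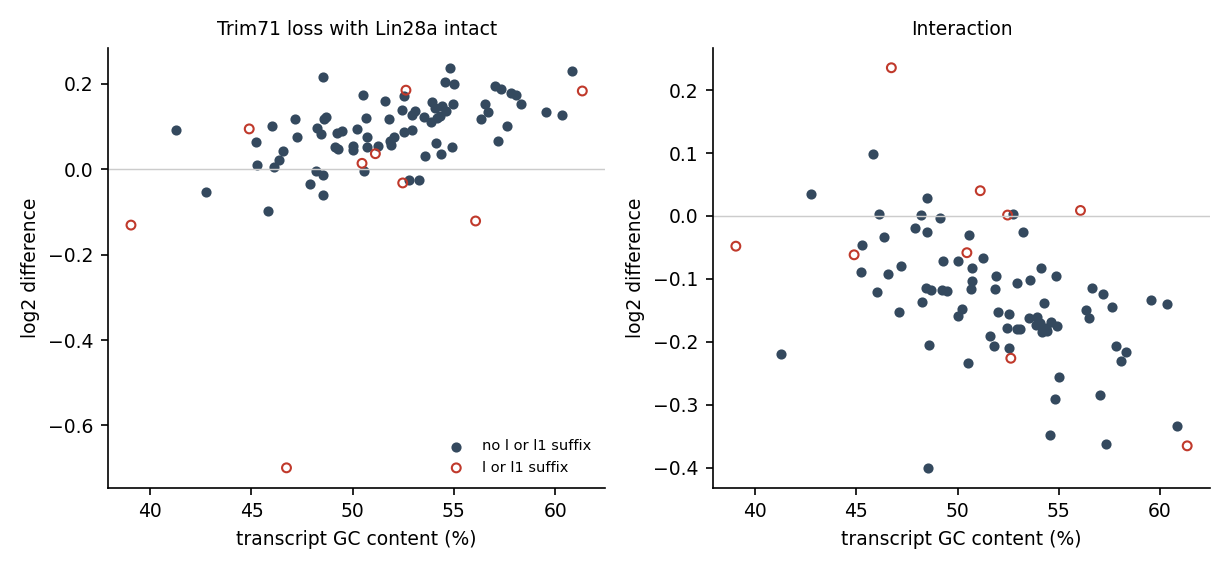
Log2 difference of each member against the GC content (%) of its transcript, for Trim71 loss with Lin28a intact (left) and for the difference between the Trim71 effects in the 2 Lin28a states (right); open circles are names ending in l or l1. GC-rich members lie higher on the left and lower on the right, with Rpl39l alone at -0.70 on the left.

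In cells without Lin28a (KO-KO against WT-KO), loss of Trim71 did not raise any member past the threshold. 3 members fell, 3.57%, against 8.38% of all genes called (4.26% higher, 4.12% lower). The median member differed by -0.038 and 75 of 84 lay below 0, where the median over all genes was -0.0093. The 3 were Rpl39l, Rplp1 and Rpl15.

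Rplp1, an acidic protein of the ribosomal stalk that recruits elongation factors, was at 13.56, 13.63, 13.54, 13.65 and 13.60 in WT-KO and at 13.36, 13.33, 13.43, 13.47 and 13.51 in KO-KO. Every KO-KO library was lower, by 0.18 ± 0.0515 on average (-11.4%, adjusted p = 0.046, lower in 5 of 5 pairs). Rpl15, a 60S core protein, was at 12.07, 12.12, 12.12, 12.11 and 12.15 in WT-KO and at 11.93, 11.92, 11.96, 12.03 and 12.02 in KO-KO. These also did not overlap, and Rpl15 fell by 0.14 ± 0.0396 (adjusted p = 0.037). The count of 3 was 0 without WT-KO replicate 1, 4 or 5 or without KO-KO replicate 1 or 2. It was 1 without WT-KO replicate 2, KO-KO replicate 3 or KO-WT replicate 2, and 5 without KO-WT replicate 1.

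The difference between the 2 Trim71 effects was tested as an interaction. 0 of 84 members passed in limma, and 3 genes of all, 0.0200%, passed. Of the 84, 35 had an unadjusted p under 0.05, a larger share than the 15.1% of all genes (2256 of 14988). Members shift together between libraries, so these 35 are not separate results. The interaction had a median of -0.13 over the members, with 74 of 84 below 0, against 0.0036 over all genes, and a Spearman rho with GC content of -0.53 (Pearson r of -0.50) over members and -0.50 (-0.51) over all genes. After the GC and length correction the median was -0.079. Most negative was Rpl27a at -0.40 ± 0.111 (adjusted p = 0.20), followed by Rps4l at -0.37, Rplp1 at -0.36 ± 0.0791 (adjusted p = 0.18) and Rplp2 at -0.35 ± 0.0860 (adjusted p = 0.18). A different response of these genes to Trim71 loss with and without Lin28a was thus not shown.

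Rpl39l had the largest difference of any member and fell with Trim71 loss in both Lin28a states. It encodes a paralogue of RPL39 known from male germ cells, where it lines the exit tunnel of part of the ribosomes. Its values were 5.14, 4.86, 4.80 and 4.91 in WT-WT and 4.51, 4.26, 4.12 and 4.03 in KO-WT. In WT-KO they were 5.03, 4.59, 4.75, 5.01 and 4.86, and in KO-KO 3.99, 4.36, 4.53, 4.45 and 4.59. No library without Trim71 reached the lowest library with it in the same Lin28a state, though in Lin28a-null cells both limits round to 4.59. Rpl39l fell by 0.70 ± 0.150 with Lin28a intact (-38.4%, adjusted p = 0.011, lower in 3 of 3 pairs) and 0.46 ± 0.128 without Lin28a (-27.5%, adjusted p = 0.034, lower in 5 of 5 pairs). The difference between these, 0.24 ± 0.197, did not pass (adjusted p = 0.58). The call with Lin28a intact was kept without each library in turn, and missed the threshold in each clone set alone (-0.52, adjusted p = 0.16 in E3; -1.03, adjusted p = 0.069 in clone 1). The call without Lin28a was lost without WT-KO replicate 1, 4 or 5 or KO-KO replicate 1 or 2, with adjusted p up to 0.12, and without KO-KO replicate 4 at 0.050. Its parent Rpl39, on the X chromosome, differed by 0.12 with Lin28a intact (adjusted p = 0.16) and 0.0044 without (adjusted p = 0.97). Per kilobase, Rpl39l stood at 5.46 and Rpl39 at 12.51, so the paralogue is the lower of the pair.

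**Figure D4:**
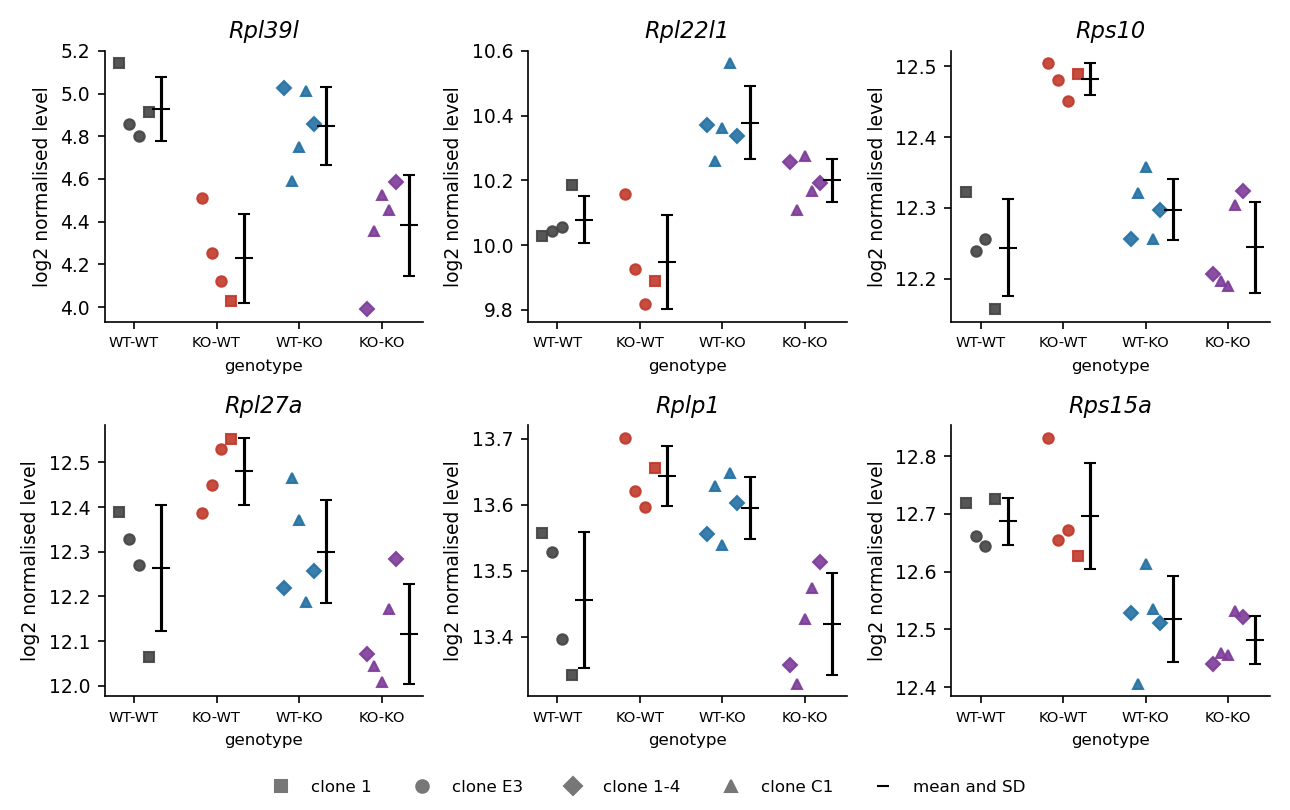
Log2 normalised level of 6 members in each library, by genotype, with marker shapes for clones and bars for mean and SD. Rpl39l is lower in both Trim71-null groups, Rpl22l1 higher in WT-KO, Rps10 higher in KO-WT alone, Rplp1 and Rpl27a lower in KO-KO than in KO-WT, and Rps15a lower in both Lin28a-null groups.

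Removing Lin28a from cells that kept Trim71 (WT-KO compared with WT-WT) changed 18 members, 21.4%, where 42.4% of all genes were called. 13 rose (20.3% of all genes did) and 5 fell (22.0% did). The median member differed by 0.047, the median gene by -0.0077, and the median absolute difference was 0.073 for members and 0.155 for all genes. Rpl22l1, Rps20, Rpl14, Rpl13a, Rps9, Rpl18, Rpl28, Rpl12, Rpl39, Rps28, Rpl10a, Rps29 and Rpl19 rose. Rps15a, Rps24, Rpl21, Rpl26 and Rpl7 fell. Each of the 18 moved the same way in 4 of 4 same-day pairs and showed no overlap between the groups. The 18 were picked by adjusted p-value from the same libraries, so this is not separate support. Of all 84 members, 22 showed no overlap, and the share over all genes is not given.

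Rpl22l1 rose most. RPL22L1 is a paralogue of RPL22, an RNA-binding 60S protein that represses it. Rpl22l1 was at 10.03, 10.04, 10.06 and 10.19 in WT-WT, 10.16, 9.92, 9.82 and 9.89 in KO-WT, 10.37, 10.26, 10.36, 10.56 and 10.34 in WT-KO and 10.26, 10.11, 10.27, 10.17 and 10.19 in KO-KO. It rose by 0.30 ± 0.0723 (23.1%, adjusted p = 0.0034) with Trim71 intact and by 0.25 ± 0.0723 (adjusted p = 0.010, higher in 3 of 4 pairs) without it. KO-WT replicate 1 overlapped KO-KO in the second comparison, and that call was lost without KO-WT replicate 3 (adjusted p = 0.050). Rpl22 itself had differences of 0.015 (adjusted p = 0.84) and -0.056 (adjusted p = 0.43).

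Rps20, a 40S head protein, was at 12.94, 12.86, 12.88 and 12.84 in WT-WT and at 13.08, 13.04, 13.10, 13.14 and 13.10 in WT-KO. It rose by 0.21 ± 0.0477 (adjusted p = 0.0020). Rpl14, a 60S protein, was at 12.79, 12.80, 12.68 and 12.81 in WT-WT and at 12.99, 12.91, 12.96, 13.01 and 13.01 in WT-KO, a rise of 0.20 ± 0.0508 (adjusted p = 0.0042). Both genes had all WT-KO libraries above WT-WT. Rps9 rose by 0.18 ± 0.0453 and Rpl13a by 0.20 ± 0.0479. Of those that fell, Rps15a, a 40S protein, was at 12.72, 12.66, 12.64 and 12.73 in WT-WT and at 12.53, 12.41, 12.61, 12.54 and 12.51 in WT-KO. It fell by 0.17 ± 0.0518 (adjusted p = 0.015), a call lost without WT-WT replicate 1 (adjusted p = 0.055) or WT-WT replicate 4 (0.057) and after GC and length correction (-0.091, adjusted p = 0.27). That correction took an annotated transcript of 5130 bases for Rps15a, where the median member had 744. Rps24, another anaemia gene, fell by 0.17 ± 0.0515 (adjusted p = 0.015). The total was 9 without WT-WT replicate 4 and 0 in clones E3 and C1 alone. Under 75th percentile scaling the 18 calls split into 15 higher and 3 lower.

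Loss of Lin28a in Trim71-null cells (KO-KO against KO-WT) had the most members called of the 5 pairwise comparisons. 31 fell and 1 rose, 38.1% in all, where 42.8% of all genes were called, 20.8% higher and 22.0% lower. The median member differed by -0.086, with 69 of 84 below 0, against -0.00082 for all genes. Small-subunit members fell in 13 of 32 cases with none rising, and large-subunit members in 18 of 52 with Rpl22l1 rising. The median absolute difference, 0.110, was again below that of all genes, 0.155.

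Rpl27a fell most. It was at 12.39, 12.45, 12.53 and 12.55 in KO-WT and at 12.07, 12.04, 12.01, 12.17 and 12.28 in KO-KO, with no overlap. Rpl27a fell by 0.36 ± 0.0782 (-22.3%, adjusted p = 0.0015). WT-WT, at 12.39, 12.33, 12.27 and 12.07, and WT-KO, at 12.22, 12.46, 12.37, 12.19 and 12.26, overlapped both. Rpl31, a 60S protein at the tunnel exit, was at 12.44, 12.34, 12.38 and 12.34 in KO-WT and at 12.04, 12.07, 12.05, 12.21 and 12.13 in KO-KO. Every KO-KO library was below KO-WT, and Rpl31 fell by 0.27 ± 0.0503 (adjusted p = 4.4e-04). Rps10 fell by 0.24 ± 0.0457 (adjusted p = 6.1e-04), Rpl13 by 0.24 ± 0.0502 and Rpl36 by 0.24 ± 0.0585. These 3 had risen in KO-WT against WT-WT, a comparison that shares the KO-WT libraries.

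The number of members that fell depended on KO-WT replicate 1, the highest library. Without it 17 fell and 3 rose, with a median of -0.031. Without KO-KO replicate 2, 19 fell and 2 rose. On the 3 days that hold all 4 genotypes 7 fell and 4 rose, and after GC and length correction 14 fell and 8 rose, with medians of -0.018 and -0.014. Rpl27a, Rpl31, Rps10 and Rps15a kept their calls without each single library and after the correction, and lost them in clones 1 and 1-4 alone.

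With both genes lost (KO-KO against WT-WT), 8 members rose and 9 fell, 20.2%, where 45.6% of all genes were called (21.0% higher, 24.6% lower). The median member differed by -0.0052 and the median gene by -0.019. Rpl28, Rpl39, Rpl14, Rps9, Rpl12, Rps28, Rpl13a and Rpl18 rose by 0.12 to 0.16. Rpl39l, Rps15a, Rpl21, Rpl31, Rpl26, Rps24, Rps14, Rpl7 and Rpl5 fell by 0.12 to 0.55. The 60S protein Rpl28 was at 12.45, 12.46, 12.32 and 12.38 in WT-WT and at 12.52, 12.55, 12.53, 12.68 and 12.55 in KO-KO. It rose by 0.16 ± 0.0455 (adjusted p = 0.0086) with no overlap. Rps15a, at 12.44, 12.46, 12.45, 12.53 and 12.52 in KO-KO, fell by 0.21 ± 0.0518 (adjusted p = 0.0042). The split of calls moved with the scaling: 8 higher and 6 lower under both 75th percentile and trimmed mean scaling, and 17 higher and 6 lower after GC and length correction. It moved with single libraries too: the total was 11 without WT-WT replicate 1, 9 without WT-WT replicate 2, 11 without WT-WT replicate 3, 11 without WT-WT replicate 4, 10 without KO-KO replicate 3 and 11 without KO-KO replicate 5.

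**Figure D5:**
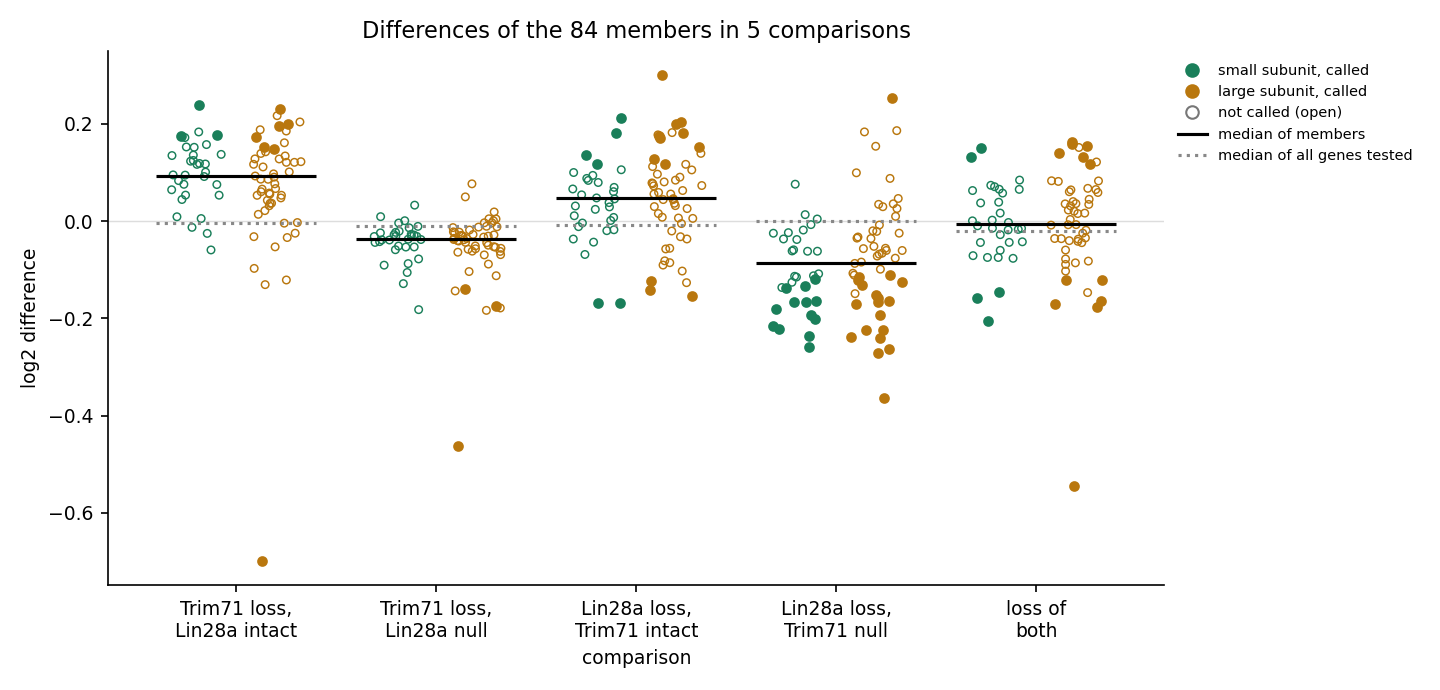
Log2 difference of each of the 84 members in 5 comparisons (points; filled where the adjusted p-value is under 0.05; small and large subunit side by side), with the median of the members (solid line) and of all genes tested (dotted line). The members' median is 0.094 for loss of Trim71 where Lin28a was kept and -0.086 for Lin28a loss in Trim71-null cells, which share the KO-WT libraries, and nearer 0 in the rest.

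The stalk binds the translational GTPases and is made of Rplp0, Rplp1 and Rplp2 on the base protein Rpl12. Rplp2 was at 12.38, 12.42, 12.24 and 12.21 in WT-WT, 12.61, 12.44, 12.47 and 12.55 in KO-WT, 12.37, 12.45, 12.36, 12.39 and 12.41 in WT-KO and 12.21, 12.11, 12.26, 12.38 and 12.31 in KO-KO. KO-WT and KO-KO did not overlap, and Rplp2 fell between them by 0.26 ± 0.0604 (adjusted p = 0.0024). Rplp1 fell between them as well, by 0.22 ± 0.0556 (adjusted p = 0.0041). In KO-WT against WT-WT all 4 stalk genes lay between 0.13 and 0.20 and none passed. Rpl12 rose with Lin28a loss when Trim71 was intact, by 0.17 ± 0.0498 (adjusted p = 0.012), and with loss of both by 0.14 ± 0.0498 (adjusted p = 0.031). Rplp0 did not pass in any comparison: its differences ran from -0.11 (KO-KO against KO-WT, adjusted p = 0.084) to 0.13 (KO-WT against WT-WT, adjusted p = 0.12).

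Rpl5 and Rpl11, which together with 5S ribosomal RNA bind MDM2 when assembly fails, changed little. Rpl5 was at 13.30, 13.23, 13.24 and 13.21 in WT-WT and at 13.08, 13.07, 13.14, 13.18 and 13.14 in KO-KO, and fell by 0.12 ± 0.0467 with loss of both (adjusted p = 0.044). After GC and length correction its difference was 0.043, and the call was also lost without WT-WT replicate 1, 2, 3 or 4, among other libraries. Rpl11 had differences from -0.076 to 0.093, none past the threshold. Of the 18 genes on a fixed list of those mutated in Diamond-Blackfan anaemia, a failure of red-cell production, 2 rose with Trim71 loss when Lin28a was intact (Rps10 and Rpl18), and 1, Rpl15, fell with it in Lin28a-null cells. These are 11.1% and 5.56% of the list, where 11.2% and 8.38% of all genes were called. With Lin28a loss, 3 rose and 2 fell when Trim71 was intact, and 10 fell with none rising in Trim71-null cells. These are 27.8% and 55.6% of the list, where 42.4% and 42.8% of all genes were called. With loss of both 2 rose and 4 fell, 33.3%, where 45.6% of all genes were called. Their medians, 0.11, -0.035, 0.027 and -0.13, lie beside 0.094, -0.038, 0.047 and -0.086 for all 84.

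Paralogues and their parents were compared per kilobase. Rpl10l, an autosomal copy that serves male meiosis, stood at 6.70 and its X-linked parent Rpl10 at 13.06. Rpl7l1 stood at 10.73 and Rpl7 at 13.06. Rps27l, a p53 target, stood at 11.44 and Rps27 at 13.31. The annotated pseudogene Rps4l was at 11.63 and Rps4x at 13.53, and reads of such close copies may be shared. Rps4l fell with Lin28a loss in Trim71-null cells by 0.26 ± 0.0606 (adjusted p = 0.0027), from 11.39, 11.48, 11.42 and 11.40 in KO-WT to 11.07, 11.08, 11.18, 11.25 and 11.23 in KO-KO. The groups did not overlap. Rps4x differed by 0.076 there (adjusted p = 0.24). Rpl7, a 60S protein, fell by 0.12 both with Lin28a loss when Trim71 was intact (adjusted p = 0.041) and with loss of both (adjusted p = 0.040); after GC and length correction the second difference was 0.021. Rpl3, Rpl3l, Rpl10, Rpl10l, Rpl7l1, Rps27, Rps27l and Rpl36a did not pass in any comparison. Apart from Rpl39l, Rpl22l1 and Rps4l, no member ending in l or l1 passed.

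Some proteins of the ribosome whose symbols fall outside the naming rule were described beside the members. Fau, which encodes a ubiquitin-like fusion of the 40S protein eS30, rose with Trim71 loss when Lin28a was intact by 0.20 (adjusted p = 0.036) and fell with Lin28a loss in Trim71-null cells by 0.15 (adjusted p = 0.025). Rack1 and Rps3a1 did not pass in any comparison; for Trim71 loss with Lin28a intact they differed by 0.14 and -0.032. Rpl36al, at a mean of 2.53, was below the filter.

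Among 17 translation factors and other genes with TOP mRNAs, 1 rose and 1 fell with Trim71 loss when Lin28a was intact, Eif3k by 0.16 and Nap1l1 by 0.25, and none passed in Lin28a-null cells. That is 11.8% and 0% of the 17, where 11.2% and 8.38% of all genes were called. With Lin28a loss in Trim71-null cells 4 fell and none rose, among them Tpt1, by 0.24 ± 0.0412 (adjusted p = 2.7e-04). With loss of both 2 rose and 5 fell. These shares, 23.5% and 41.2%, lie below the 42.8% and 45.6% of all genes called. Eef2, the translocation factor, rose there by 0.18 ± 0.0437 (adjusted p = 0.0040). The group's medians were 0.034, -0.018, -0.027, 0.0087 and -0.041 in the 5 comparisons.

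Ribosome biogenesis genes make and assemble the subunits in the nucleolus. Of 46 tested, 1 rose and 7 fell with Trim71 loss when Lin28a was intact (median -0.025), 17.4% where 11.2% of all genes were called. Ncl, the nucleolar protein nucleolin, fell by 0.35 ± 0.0996 (adjusted p = 0.036), Nop58, a core protein of box C/D snoRNPs, by 0.33 ± 0.100, and Taf1d, a factor of RNA polymerase I, by 0.41 ± 0.102. With Lin28a loss 13 rose and 3 fell when Trim71 was intact, and 15 rose and 5 fell in Trim71-null cells. These shares, 34.8% and 43.5%, lie below or near the 42.4% and 42.8% of all genes called. Polr1a, the largest subunit of RNA polymerase I, rose by 0.37 ± 0.0624 and 0.44 ± 0.0624, and Rrp1b by 0.43 in both. Fbl, the methyltransferase fibrillarin, fell by 0.22 ± 0.0468 in Trim71-null cells.

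Of 19 regulators of these genes, 12 passed with Lin28a loss when Trim71 was intact (7 higher, 5 lower) and 15 in Trim71-null cells (9 higher, 6 lower), 63.2% and 78.9% where 42.4% and 42.8% of all genes were called. Myc, a transcriptional activator of ribosome genes, fell by 0.64 ± 0.142 and 0.67 ± 0.142, its partner Max by 0.34 and 0.35, and Mdm2, the ubiquitin ligase of p53, by 0.89 ± 0.0621 and 0.68 ± 0.0621. Mtor rose by 0.43 and 0.46, and Tsc2, which restrains mTOR complex 1, by 0.32 and 0.38. With Trim71 loss 1 passed when Lin28a was intact, Mycl, which fell by 0.50 ± 0.0813 (adjusted p = 0.0023). In Lin28a-null cells 3 did: Mycl fell by 0.52 ± 0.0696, Eif4ebp1 fell by 0.22 ± 0.0508 and Mdm2 rose by 0.25 ± 0.0574. These counts of 1 and 3 are 5.26% and 15.8% of the 19, where 11.2% and 8.38% of all genes were called. Hosts of snoRNAs, whose spliced transcripts also start with pyrimidines, had 11 genes tested. With Lin28a loss 4 rose and 1 fell when Trim71 was intact, and 5 rose and 1 fell without Trim71, with medians of 0.17 and 0.15 and shares of 45.5% and 54.5%, beside the same 42.4% and 42.8%; Snhg20 was the one that fell, by 0.34 ± 0.0801 and 0.70 ± 0.0801. Lin28a state and clone cannot be told apart for any of these.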

How the data were processed

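RNA-seq values of mouse embryonic stem cells were taken from 1 deposited table of 21685 genes and 19 libraries. The submitters' processing notes name CASAVA 1.8, STAR and DESeq2, with no role or order; the build, annotation, counting and normalisation are not given in the sources used here. Per the labels' protocols, RNA was extracted with TRIZOL and made into paired-end libraries with the TruSeq RNA v2 kit for a HiSeq1500. The deposited values fit log2 normalised expression; base 2 was inferred from the values. The authors' values had day effects removed: the largest remaining day term of any gene was 1.7e-08. KO-WT replicate 5, alone on its day, matched its group's mean to within 1.5e-08 and was left out, leaving 18 libraries. Counting intervals cannot be given, since depth is unknown.

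The test used limma 3.58.1 (R 4.3.3) with a variance trend, genotype means and day terms, on the 14988 genes (69.1%) that reached log2 of 10 in 4 or more libraries, with 10 residual degrees of freedom. Same-day libraries are paired by the labels; a correlation check of the pairing is void because day effects had been removed. The fit was run on simulated data in which genes varied independently. Its outcome was checked only for changes larger than that of any member. Members shift together between libraries, so this check does not cover their calls. P-values were adjusted by Benjamini-Hochberg over all tested genes, and 0.05 was the threshold. Percent of all units is the sum of 2 to the power of each value over members, divided by that over all genes. Lengths, GC content (14724 genes, 84 members) and biotypes came from GENCODE M21, and promoter windows from RefSeq. A single annotated transcript stood for each gene. It had 5130 bases for Rps15a, 3706 for Rps20, 2048 for Rpl22 and 2045 for Rpl5, where the median member had 744. Whether the cells use these transcripts was not tested, and per-kilobase levels and the GC and length correction rest on them. Tables and figures used Python with pandas and matplotlib.

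The members and gene lists were chosen with earlier results of these data known. Members named are those with the up to 5 largest rises and falls per comparison, the paralogue pairs, the stalk, the 5S partners and the up to 5 most variable between genotypes; of further lists, up to 3 called per direction. Members named outside this rule (all called, or low in level) were chosen after their values were seen. Alternatives left out the day term or single libraries, or changed the scaling, the filter, the variance trend, the genotypes fitted, the clones or the days, or corrected for GC content and length. 1 gene of a further list is not reported here.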

Additional observations from a re-analysis of the deposited data

Results flagged for a closer look

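Examined were 156 groups of values, which include each of the 38 named members in each genotype. Of these groups, 14 held a library whose gap to its nearest neighbour exceeded Dixon's critical value. Chance flags about 1 in 20, and the groups are not independent, since members shift together between libraries. Because day effects had been removed, deviations of same-day libraries from their genotype means also balance out. A high library thus goes with lower ones of its day. KO-WT replicate 1 and WT-KO replicate 2 were both of day 2, and WT-WT replicate 3 and KO-KO replicate 4 both of day 4, so their flags are not separate. Log2 levels are given. WT-WT replicate 3 was low for Rpl11 (12.61, the nearest other library at 12.73), Rpl14 (12.68), Rpl3 (13.93) and Rpl7l1 (11.05). WT-WT replicate 2 was low for Rpl39 (11.66). KO-WT replicate 1 was high for Rpl12 (13.40, the nearest at 13.24), Rpl14 (12.97), Rpl22 (12.30) and Rps24 (13.50). WT-KO replicate 2 was low for Rpl26 (13.08), Rpl3 (14.05) and Rps24 (13.09), and WT-KO replicate 5 was high for Rpl41 (12.86). KO-KO replicate 4 was high for Rpl28 (12.68). The summed share was the lowest of its group in WT-WT replicate 3 (6.99%) and WT-KO replicate 2 (7.31%) and the highest in KO-WT replicate 1 (8.30%) and KO-KO replicate 4 (7.76%), but not extreme in WT-WT replicate 2 (7.36%) or WT-KO replicate 5 (7.71%). What set these libraries apart was not tested.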

How the results depend on the processing

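The comparisons are named by their groups. For the alternatives, calls over all genes in the same fits are not given. Changes in the counts below are thus not shown to be particular to the members. Members called numbered 10 (KO-WT against WT-WT), 3 (KO-KO against WT-KO), 18 (WT-KO against WT-WT), 32 (KO-KO against KO-WT), 17 (KO-KO against WT-WT) and 0 (interaction). Without the replicate block, that is without the day term, KO-WT against WT-WT gave 33, KO-KO against WT-KO 7, WT-KO against WT-WT 28 and the interaction 19; this fit has 14 residual degrees of freedom in place of 10, although day effects had been removed. KO-WT against WT-WT gave 17 with 75th percentile scaling, 4 after GC and length correction, 2 without the variance trend, 4 on the 3 days with all 4 genotypes, and 0 with only its 2 genotypes or in either clone set. KO-KO against WT-KO gave 1 without the trend and 0 on the 3 days or in either clone set. WT-KO against WT-WT gave 0 in E3 and C1. KO-KO against KO-WT gave 20 with only its genotypes, 9 in E3 and C1, 5 in clones 1 and 1-4 and 11 on the 3 days. KO-KO against WT-WT gave 11 without the trend, 10 with only its genotypes, 0 in E3 and C1 and 11 in clones 1 and 1-4. The fits on clones, days or 2 genotypes hold fewer libraries, and the lone KO-WT library of clone 1 was taken to vary like the other groups.

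Leaving out each library in turn gave 1 to 16, 0 to 5, 9 to 22, 20 to 39, 9 to 20 and 0 members called in the same order, with medians of 0.062 to 0.11, -0.061 to -0.018, 0.026 to 0.075, -0.11 to -0.031, -0.031 to 0.024 and -0.16 to -0.100. The median member of KO-WT against WT-WT was 0.029 in clones 1 and 1-4. That of KO-KO against KO-WT was -0.014 after GC and length correction and -0.018 on the 3 days, that of KO-KO against WT-WT 0.055 on the 3 days, and that of the interaction -0.079 after the correction. Without the 5 highest members the summed share was 6.13, 6.62, 6.33 and 6.18% in WT-WT, KO-WT, WT-KO and KO-KO, by construction lower. For 51 calls of named members, 1476 values under alternatives included 283 that lost the call and 2 that changed sign, both in KO-KO against WT-WT after GC and length correction: Rpl5 at 0.043 and Rpl7 at 0.021. Where no construction is named, the cause was not tested. Depth is unknown, so what it limits cannot be stated.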

Other observations

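Mitochondrial ribosomal protein genes, which build the separate ribosome of that organelle, were counted as the nearest like group. Of 77 tested, 3 rose with Trim71 loss when Lin28a was intact and 4 fell with it in Lin28a-null cells, with medians of 0.053 and -0.043; 3.90% and 5.19% were called, beside 11.2% and 8.38% of all genes. With Lin28a loss 10 rose and 4 fell when Trim71 was intact (median 0.016), and 4 rose and 22 fell in Trim71-null cells (median -0.097). These shares, 18.2% and 33.8%, lie below the 42.4% and 42.8% of all genes called. No test compared them with the cytosolic genes, whose medians were 0.094, -0.038, 0.047 and -0.086. Of 158 processed copies marked -ps in the table, 74 were tested: 2 rose with Trim71 loss when Lin28a was intact (median 0.10), and 16 fell with none rising with Lin28a loss in Trim71-null cells (median -0.10), 2.70% and 21.6% beside 11.2% and 42.8% of all genes. Their summed share of all units was 0.0424 ± 0.00207% in WT-WT (SD, n = 4) and 0.0467 ± 0.000704% in KO-WT (n = 4). How far these values reflect reads of the parent genes was not tested.

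Across the 5 pairwise comparisons, 36 of the 84 members were called in none, 22 in 1, 20 in 2 and 6 in 3. The comparisons share groups. Lin28a loss called 42.4% and 42.8% of all genes and loss of both 45.6%. The same distribution over all genes is not given, so these counts are not a result about the members.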
